A study of Rattus norvegicus with 4 samples.

Results

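Messenger RNA of 9 genes was followed across 4 perfusion conditions of the rat kidney: Fos, Fosb, Fosl1 and Fosl2, Jun, Junb and Jund, and Atf3 and Maff. They were chosen by name, as the array's probe sets whose platform annotation gives 1 of these symbols, out of 14217 genes on the array. Together they have 15 probe sets, groups of short probes that report 1 transcript, and each gene was read from its brightest probe set, by the mean of the 4 arrays.

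AP-1 is a transcription factor that works as a dimer of basic leucine zipper (bZIP) proteins. A Jun protein pairs with another Jun, with a Fos protein or with an ATF protein, and the pair binds short DNA sites in genes of growth, inflammation and repair. Fos, Fosb, Jun and Junb are textbook immediate early genes: their transcription starts within minutes of a stimulus without new protein synthesis, through kinase signalling to the serum response factor, CREB and ATF proteins, and their messengers decay quickly. In the kidney, ischaemia followed by reflow of oxygenated fluid is a classical trigger. Jund is the Jun gene usually present in resting cells, Fosl1 and Fosl2 encode the Fra proteins that tend to appear later, Atf3 is a stress-induced bZIP factor known mainly as a repressor, and Maff is a small Maf protein that lacks an activation domain.

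All kidneys came from male Wistar rats of 300 to 480 g that were bled out and left for 29 min before the left kidney was removed, a model of donation after cardiac death. The cold group had 3 h of machine perfusion with cold University of Wisconsin solution, an organ preservation fluid. The warm group had the same and then 30 min of warm, oxygenated perfusion to simulate reperfusion outside the body, with a salt solution (a modified Krebs-Henseleit buffer) and no blood. The heparin and PPS groups were perfused like the warm group, with low molecular weight heparin or with PPS (given in the labels by this abbreviation) at 10 IU/ml in the cold and in the warm perfusate. Each group is 1 array that was hybridised with an equimolar RNA pool of 3 kidneys, picked for RNA quality, so spread between animals is not seen and no p-value can be given. No kidney without ischaemia or perfusion was among the groups, so the cold array is itself a kidney after warm ischaemia and cold perfusion.

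Values are log2 expression values, on which a step of 1 is a 2-fold change. Values under 4.51, the 50th percentile of all values and called the floor here, mostly reflect the background model and were raised to it before differences were taken. A gene is called higher or lower where 2 arrays differ by at least 1, and a fold against an array at the floor is a lower bound. Of the 9 genes, 4 (Fos, Jun, Junb and Jund) were above the floor on every array, Fosb and Atf3 on the 3 warm-perfused arrays, and Maff on the warm array alone. Fosl1 and Fosl2 were never above it. Because Fosb and Atf3 passed the floor only on the warm-perfused arrays, the direction of their differences from the cold array was fixed in advance. For Maff the direction was fixed in every difference that involves the warm array. Counts below include these 3 genes.

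The promoters of 4 of the genes that were above the floor are shown first, as the DNA to which the signals behind immediate early transcription are known to converge. The sequences are the 250 bases before the annotated transcription start as RefSeq gives it for rat assembly GRCr8, 5′ to 3′ on the gene's own strand. Capitals mark the cAMP response element (CRE), which CREB and ATF proteins bind, as TGACGTCA or as its shorter core TGACG on either strand (a core on the opposite strand reads CGTCA). Fosb and Junb are shown because they differed strongly between arrays, Maff because it was seen on 1 array, and Jund because it differed least.
Fosb: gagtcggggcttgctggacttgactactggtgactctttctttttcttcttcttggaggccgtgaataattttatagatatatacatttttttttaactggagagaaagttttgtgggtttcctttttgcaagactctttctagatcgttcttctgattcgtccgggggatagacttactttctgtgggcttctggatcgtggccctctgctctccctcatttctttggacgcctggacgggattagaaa
Junb: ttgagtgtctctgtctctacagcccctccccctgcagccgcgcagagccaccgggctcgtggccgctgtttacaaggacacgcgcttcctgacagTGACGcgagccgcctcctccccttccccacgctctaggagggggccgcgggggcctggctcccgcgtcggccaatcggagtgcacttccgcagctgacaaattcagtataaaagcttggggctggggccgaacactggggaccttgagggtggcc
Maff: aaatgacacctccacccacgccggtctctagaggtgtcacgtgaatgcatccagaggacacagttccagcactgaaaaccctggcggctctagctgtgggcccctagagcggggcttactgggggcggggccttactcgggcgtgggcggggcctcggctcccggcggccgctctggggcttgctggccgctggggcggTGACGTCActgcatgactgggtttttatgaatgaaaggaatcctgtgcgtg
Jund: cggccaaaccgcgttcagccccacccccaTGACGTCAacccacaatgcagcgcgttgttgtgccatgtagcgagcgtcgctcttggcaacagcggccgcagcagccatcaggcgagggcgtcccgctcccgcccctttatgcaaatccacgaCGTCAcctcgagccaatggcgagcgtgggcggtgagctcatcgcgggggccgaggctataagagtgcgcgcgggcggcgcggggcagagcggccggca
The Fosb window lies at chr1:88089185-88089434 on the minus strand and the Junb window at chr19:40080876-40081125 on the plus strand. The Maff window is chr7:112792537-112792786 on the plus strand, and the Jund window is chr16:18769772-18770021 on the minus strand. A full CRE stood from -51 to -44 in Maff and from -221 to -214 in Jund, counted from the start site. Junb had a core from -155 to -151 and a TATA core (TATAAA) from -49 to -44, and Fosb had neither a full CRE nor its core in this window.

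RefSeq's promoter table matched 6 of the 9 genes: Fosb, Fosl1, Fosl2, Junb, Jund and Maff. Fos, Jun and Atf3 were not matched. A full CRE was found in 2 of the 6 windows, Jund and Maff, against 1.59% of 33469 windows of the same length. The core TGACG, which every full CRE also contains, was in 4 (Fosl1, Junb, Jund and Maff) against 18.2%. The AP-1 site itself (TGANTCA) and the CArG box of the serum response factor were in 0 of 6, against 6.34% and 1.5% of windows. An Sp1 box (GGGCGG) was in 4 of 6 against 30.5%, and TATAAA in Fosb and Junb against 12.9%. All motifs were searched on both strands. With 6 windows these are descriptions of sequence: Jund, with the smallest differences between arrays, and Maff both carry the full CRE.

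**Figure D1:**
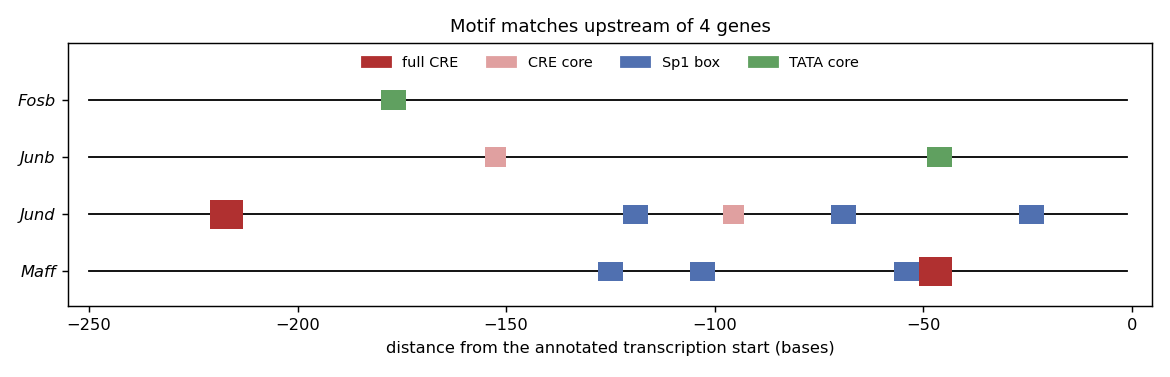
Positions of motif matches in the 250 bases before the annotated start of Fosb, Junb, Jund and Maff (x axis: distance from the start in bases; 1 line per gene). The full CRE lies near the start in Maff (-51 to -44) and far upstream in Jund (-221 to -214), and Junb has a CRE core and a TATA core.

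Some facts of the arrays bear on every difference below. Kidney markers were present: 11 of 12 listed genes were on the array and all 11 were above the floor on each array. Of 13 leukocyte markers on the array, 5 or 6 were above the floor, and Cd3d, Cd4, Cd8a, Cd68, Itgam, S100a8 and S100a9 were at it on all 4 arrays. The cold array stood apart in its poly-A controls, which are bacterial transcripts added to the RNA ahead of labelling and read by 24 probe sets: their median was 6.41 on the cold array and between 7.47 and 7.67 on the others. Scaling the arrays to these controls (poly-A scaling below) moves the warm minus cold median over all genes to -1.13. Directions reported below for single genes in warm minus cold that this turns are given with the results. As a check of RNA integrity, log2 signal was compared between 3′ and 5′ probe sets, where a wider gap can mean less intact RNA. For beta-actin the gap (3′ minus 5′) was 2.79 on the cold array and 3.19 to 3.39 on the others. For GAPDH the gap was 0.60 on the cold array and 0.72 to 0.84 on the others. Both gaps were thus narrowest on the cold array. The part of RNA quality in the differences from the cold array was not tested.

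The first comparison, warm against cold, asked what a short warm reperfusion does to kidneys after cold storage. Fos family genes split into a pair that was very high after warm perfusion and a pair that stayed at background. Fos, the founding partner of Jun in AP-1, read 6.93 (log2) after cold perfusion, 14.70 after warm perfusion, 14.08 with heparin and 13.44 with PPS (probe set 1375043_at). Every warm-perfused array was thus far above the cold array, and the 3 lay within 1.26 of each other. Warm exceeded cold by 7.77, which is 218-fold, and ranked first among the 9200 genes that were above the floor on both arrays. In the other 2 differences from the cold array, Fos also ranked first, at 142-fold with heparin and 91.2-fold with PPS.

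Fosb, a second Fos protein that also exists in a shorter, longer-lived form, was listed at the lowest value of the file, 2.11, on the cold array. It stood at 13.47 after warm perfusion, at 12.18 with heparin and at 11.27 with PPS (1373759_at). Against the floor, warm was at least 497-fold, heparin at least 204-fold and PPS at least 108-fold higher than cold. Fosl1 was at 2.11 on all 4 arrays (1368489_at). Fosl2 had its highest value on the warm array, 3.83, against 2.20 on the cold and 2.28 on the heparin and PPS arrays (1383860_at), and its other probe set ran from 2.47 to 3.04. None of these Fosl2 or Fosl1 values reached the floor, so no fold is given and their state cannot be read from these probe sets.

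Jun genes had a measurable level on the cold array already and differed from it by less. Jun, a partner in many AP-1 dimers, read 11.14 on the cold array and 14.57 on the warm array, with 13.69 for heparin and 12.96 for PPS (1389528_s_at). Warm was 10.8-fold higher than cold, rank 23 of 9200. Its other 2 probe sets differed by 3.03 and 3.71 in warm minus cold, beside 3.43 for the one read. Junb, which often damps the activity of Jun, stood at 7.54, 11.65, 10.26 and 9.67 on the cold, warm, heparin and PPS arrays (1387788_at). Its warm value was 17.2-fold the cold value, rank 16.

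Jund had the smallest difference of the 3 Jun genes. It read 12.25 after cold and 13.35 after warm perfusion, 12.96 with heparin and 12.94 with PPS (1393138_at), so that all 4 arrays lay within 1.10. Warm was 2.15-fold higher than cold, rank 156 of 9200, and just past the size limit; heparin and PPS exceeded cold by 0.71 and 0.69, within it, and turned to -0.55 and -0.36 with poly-A scaling. The warm minus cold difference of Jund was 0.71 after scaling to the hybridisation controls, -0.026 with poly-A scaling and 0.37 as the mean of its 3 probe sets, of which the other 2 were at or near the lowest value on every array.

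Atf3, whose product also pairs with Jun proteins, had 3.21 on the cold array, under the floor, and then 13.04 on the warm array, 11.09 with heparin and 10.08 with PPS (1369268_at). Warm was at least 368-fold, heparin at least 95.6-fold and PPS at least 47.3-fold higher than cold. Maff was above the floor on the warm array only, at 6.07, with 3.40 after cold perfusion, 4.34 with heparin and 4.15 with PPS (1380229_at), and warm was at least 2.93-fold higher than cold. Maff has a single probe set and lies close to the floor, so its differences are the least certain of the 7 genes.

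**Figure D2:**
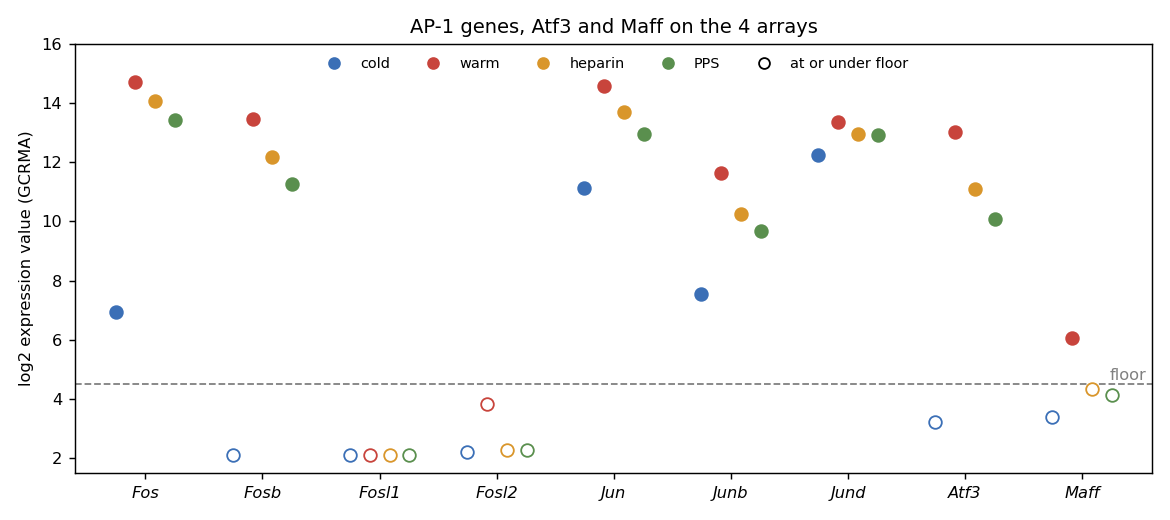
Log2 expression values (y axis) of the 9 genes (x axis) on the cold, warm, heparin and PPS arrays, 1 point per array; open points lie at or under the floor (dashed line, 4.51). Fos, Fosb, Jun, Junb, Jund and Atf3 are highest on the warm array, followed by heparin, PPS and cold, and Fosl1 and Fosl2 lie under the floor throughout.

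In all, 7 of 9 genes passed the limit as higher on the warm than on the cold array, where 2.48% of 9393 genes were, and 0 were lower. The 4 genes above the floor on every array were all among them. The median difference over the 7 genes was 4.10, and over all genes -0.0032. With poly-A scaling the direction of Jund turned, 6 genes stayed past the limit (0.735% of all genes) and the median was 2.97. With heparin, 5 of the 6 genes that could be compared were higher than on the cold array (1.17% of all genes), and with PPS also 5 of 6 (1.03%), with Jund the exception in both. These 2 comparisons and warm minus cold share the cold array. On the PPS array Jun exceeded cold by 1.82, or by 0.77 with poly-A scaling.

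The comparisons of heparin and of PPS with the warm array set kidneys perfused with a supplement beside kidneys perfused without, and both share the warm array. Each supplement was in the cold and in the warm perfusate, and no array had supplemented cold perfusion alone. A difference that arose in the cold and a changed response to warm perfusion therefore cannot be told apart. Nor can a supplement and a difference between the kidneys pooled. Atf3, Junb, Fosb and Maff were lower by 2-fold or more with either supplement than without, and Jun and Fos with PPS. Fos, Fosb, Jun, Junb and Atf3 were still at least 3.52-fold higher with either supplement than on the cold array. Expressed on a linear scale, the heparin array held 65.2% of the warm level of Fos, 54.1% of Jun, 41.0% of Fosb, 38.3% of Junb and 26.0% of Atf3. The PPS array held 41.8% of the warm level of Fos, 32.7% of Jun, 25.4% of Junb, 21.7% of Fosb and 12.9% of Atf3. Jund stood at 76.0% with heparin and 75.1% with PPS. Fos, the gene with the largest measured difference from cold, thus kept a larger share of its warm level than Jun, Junb, Fosb or Atf3 on either array.

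For heparin minus warm, 4 of the 7 genes passed the limit as lower, against 1.48% of all genes, and 0 were higher, against 0.383%. They were Atf3, with a log2 difference of -1.95 (18th lowest of 9228 genes above the floor on both arrays), Junb (-1.38, 53rd lowest), Fosb (-1.29, 69th lowest) and Maff, which was at least 2.93-fold lower. Jun (-0.89), Fos (-0.62) and Jund (-0.40) stayed within the limit. The 3 Jun probe sets gave -0.74, -1.31 and -0.89, on either side of it, and poly-A scaling took the one read to -1.02. The median over the 7 genes was -1.29, beside a median of 0 and a middle 95% of -0.74 to 0.51 over all genes.

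For PPS minus warm, 6 of the 7 genes were lower by 2-fold or more, against 1.71% of all genes, and 0 were higher, against 0.511%. Atf3 differed by -2.96, a 7.78-fold lower value and the 5th lowest of 9238 genes. Fosb followed with -2.20 (4.60-fold), Junb with -1.98 (3.94-fold), Jun with -1.61 (3.06-fold) and Fos with -1.26 (2.39-fold). The Jun probe sets lay closely together here, at -1.63, -1.80 and -1.61. Maff was again at least 2.93-fold lower, and Jund differed by -0.41, within the limit. The call of Fos was lost, at -0.63, when its 2 probe sets were averaged, because the other one was at the lowest value on all 4 arrays. The median over the 7 genes was -1.61, with 0 over all genes and a middle 95% from -0.74 to 0.49.

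**Figure D3:**
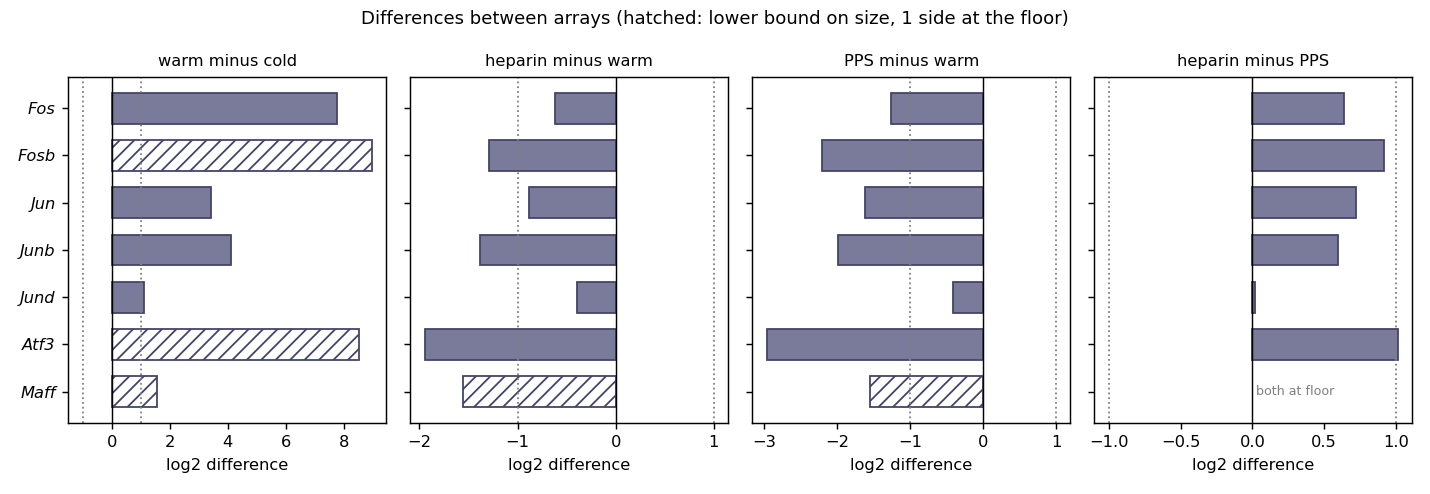
Log2 differences (x axis) between arrays for the 7 genes that passed the floor anywhere, in 4 comparisons; dotted lines mark the 2-fold limit and hatched bars are lower bounds with 1 side at the floor. Bars point right (higher) for warm minus cold and left (lower) for either supplement minus warm, and Jund has the shortest bar of each comparison, leaving aside Maff in heparin minus PPS, which has none. The horizontal scales differ between the comparisons.

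Heparin and PPS were used at the same 10 IU/ml and for the same times, so their arrays can be set side by side, although equal activity units need not mean equal mass. The labels do not describe how their structures differ. Levels of 5 genes were higher with heparin than with PPS by 0.59 to 1.01 on the log2 scale: Atf3 by 1.01, Fosb by 0.92, Jun by 0.73, Fos by 0.64 and Junb by 0.59. Over all genes, the middle 95% of this difference ran from -0.45 to 0.46, so that these 5 genes lay above it and ranked between 15th and 114th highest of 9239. Jund differed by 0.018, within that range, and Maff was at the floor on both arrays. All 6 differences that could be taken were above 0, as were 51.7% of all genes; with poly-A scaling, or centred on the median of all genes, Jund turned below 0. By the 2-fold limit, 1 of the 6 genes that could be compared, Atf3, was higher with heparin (2.02-fold), against 0.192% of all genes, and 0 were lower. That call stood on the limit: it was lost with poly-A scaling (0.81) or with arrays centred on the median of all genes (0.98), and after scaling to the hybridisation controls 5 of the 6 genes passed, with a median shift of all genes of 0.47. With 1 pool of kidneys for each supplement, a difference between supplements and a difference between the kidneys pooled cannot be told apart.

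**Figure D4:**
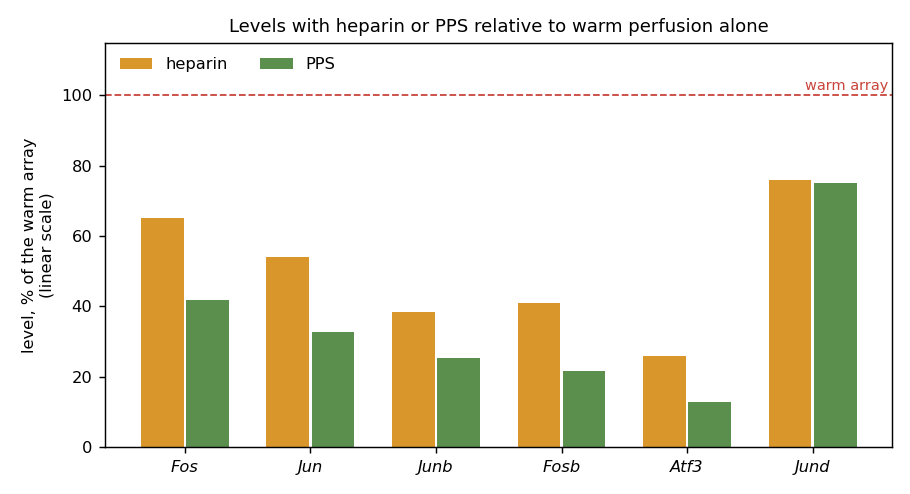
Level of 6 genes on the heparin and PPS arrays as a percentage of the level on the warm array (y axis, linear scale; 1 array per bar, no error bars). Bars range from 76.0% for Jund with heparin to 12.9% for Atf3 with PPS, and the PPS bar is the shorter in each pair, by little for Jund.

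A single order of the arrays was shared by 6 genes, with warm highest, then heparin, PPS and cold: Fos, Fosb, Jun, Junb, Jund and Atf3. Among 9393 genes, 6.22% had this order. Neighbours in it were separated by 0.59 or more for every gene of the 6 but Jund, whose heparin and PPS values did not differ beyond the spread of all genes. With poly-A scaling, or with arrays centred on the median of all genes, Jund left the order and 5 genes kept it. Of all genes, 0.373% and 4.66% then had this order.

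Genes with the most similar pattern were sought among all others above the floor, by the root mean square distance over the 3 differences from the cold array. For Junb, the nearest was Csrnp1, an immediate early nuclear protein, at a distance of 0.057, with differences from cold of 4.11 (warm), 2.75 (heparin) and 2.03 (PPS). Klf4, a Krueppel-like factor, and the immediate early gene Ier2 followed at 0.18 and 0.21. For Jun, the nearest were Depp1 (0.21), Klf6 (0.26) and Klf4 (0.29). Depp1 stood just under the floor on the cold array, at 4.24.

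Fos and Atf3 had no such close neighbour. For both of them the 3 nearest genes were Rgs1, which limits G-protein signalling, the growth arrest gene Gadd45b and the zinc finger factor Egr1. Their distances were 1.91, 2.30 and 2.89 from Fos and 1.80, 1.94 and 2.69 from Atf3. Rgs1, the nearest of them, differed from cold by at least 5.89 after warm perfusion, 5.26 with heparin and 4.57 with PPS, as its cold value was at the floor. The likeness is over 3 differences that share 1 cold array, and bounds at the floor enter it for Atf3, Rgs1 and Depp1.

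Among other bZIP genes, possible partners or competitors of AP-1, a minority differed. Of 35 listed, 32 were on the array and 24 above the floor, and 5 were at least 2-fold higher in warm minus cold (2.48% of all genes) with 0 lower (1.16%); the median was -0.020. The largest was Cebpd, a C/EBP factor of the acute phase response, with 5.56 after cold and 8.66 after warm perfusion, 7.07 with heparin and 6.56 with PPS, 8.53-fold higher on the warm than on the cold array. Ddit3, which encodes the stress factor CHOP, differed by 1.97, Cebpb by 1.49, Nfil3, a repressor linked to the clock, by 1.14 and the small Maf gene Mafk by 1.05. With poly-A scaling Cebpd alone of the 24 was past the limit as higher (0.735% of all genes), 15 were lower, and Mafk turned to -0.077. The median of the list was then -1.15, beside -1.13 over all genes. With scaling to the hybridisation controls 3 were higher (1.33% of all genes) and 1 lower. The median was then -0.41 for the list and -0.39 over all genes.

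With the supplements, the same list had 0 genes higher and 3 lower for heparin minus warm, where 0.383% and 1.48% of all genes were. The 3 were Cebpd (-1.58), Ddit3 (-1.22) and Nfil3 (-1.14). After scaling to the hybridisation controls 1 was lower, where 0.898% of all genes were. For PPS minus warm 0 were higher (0.511% of all genes) and 5 lower (1.71%): Nfil3 (-2.77), Cebpd (-2.10), Ddit3 (-1.74), Cebpb (-1.10) and Atf4 (-1.03), the main factor of the integrated stress response. Nfil3 ended under its cold level with PPS, at 5.50 against 7.12. The AP-1 relatives Batf, Batf2, Batf3 and Jdp2, and also Atf2, were at the floor on all 4 arrays.

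Of the kinases and factors that act upstream of AP-1, Map3k8 and Srf differed. Of 29 listed, 21 were on the array and 20 above the floor, 2 were higher in warm minus cold (2.48% of all genes) and 0 lower (1.16%), and the median was 0.12. Map3k8, a kinase that feeds the ERK and JNK pathways, was under the floor after cold perfusion (4.48) and stood at 7.36 after warm perfusion, at 5.61 with heparin and at 5.15 with PPS, at least 7.17-fold higher on the warm than on the cold array. Srf, the serum response factor, had 8.83, 10.13, 9.43 and 9.26 on the cold, warm, heparin and PPS arrays, 2.48-fold higher on the warm than on the cold array. With poly-A scaling Srf fell within the limit in warm minus cold, at 0.18, and Map3k8 stayed past it at 1.75. Scaling to the hybridisation controls also left 1 gene of the list higher. For either supplement against warm, Map3k8 was the only gene of the 20 past the limit, at -1.75 with heparin and -2.20 with PPS, where 1.48% and 1.71% of all genes were lower. With the floor at the 60th percentile of all values 1 gene of the list was higher in warm minus cold, and 0 were lower with either supplement. These are levels of messenger RNA, and kinase activity was not measured. With poly-A scaling the median of the list in warm minus cold was -1.01, beside -1.13 over all genes, with 1 gene higher and 11 lower.

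Textbook target genes of AP-1 were mixed. Of 30 listed, 29 were on the array and 21 above the floor, of which 6 were higher and 1 lower in warm minus cold (2.48% and 1.16% of all genes), with a median of 0.55; with poly-A scaling the counts were 4 and 5 and the median -0.51, beside -1.13 over all genes. Ccn1, a matricellular protein, had the largest difference at 17.4-fold, followed by Ptgs2 (5.97-fold), the inducible cyclooxygenase, the EGF receptor ligand Hbegf (5.90-fold), the cytokine gene Il1b (5.26-fold) and the receptor gene Tnfrsf12a (3.69-fold). The 6th higher gene, Ccn2, differed by 1.02 (2.03-fold), which turned to -0.11 with poly-A scaling. The lower gene was Mmp2, a matrix metalloproteinase of stromal cells, by 1.26.

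The supplements divided this list. Heparin minus warm gave 4 lower genes, where 1.48% of all genes were (Ccn1, -3.93; Hbegf, -1.79; Tnfrsf12a, -1.09; the chemokine Ccl2, -1.002) and 2 higher, Areg (1.65), another EGF receptor ligand, and Mmp9 (1.22), where 0.383% of all genes were. The 4 lower genes became 3 with arrays centred on the median of all genes or quantile-normalised, and 2 with scaling to the hybridisation controls; the 2 higher became 0 with the floor at the 60th percentile. PPS minus warm gave 6 lower (1.71% of all genes), led by Hbegf (-2.30), Il1b (-1.57) and Ccn1 (-1.57), and 2 higher (0.511%), Mmp2 (1.85) and Areg (1.19), which also became 0 with that floor. Ccn1 departed from the order of the AP-1 genes: it read 6.87 after cold and 10.99 after warm perfusion, 7.06 with heparin and 9.42 with PPS, so that it was lower with heparin than with PPS by 2.36.

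**Figure D5:**
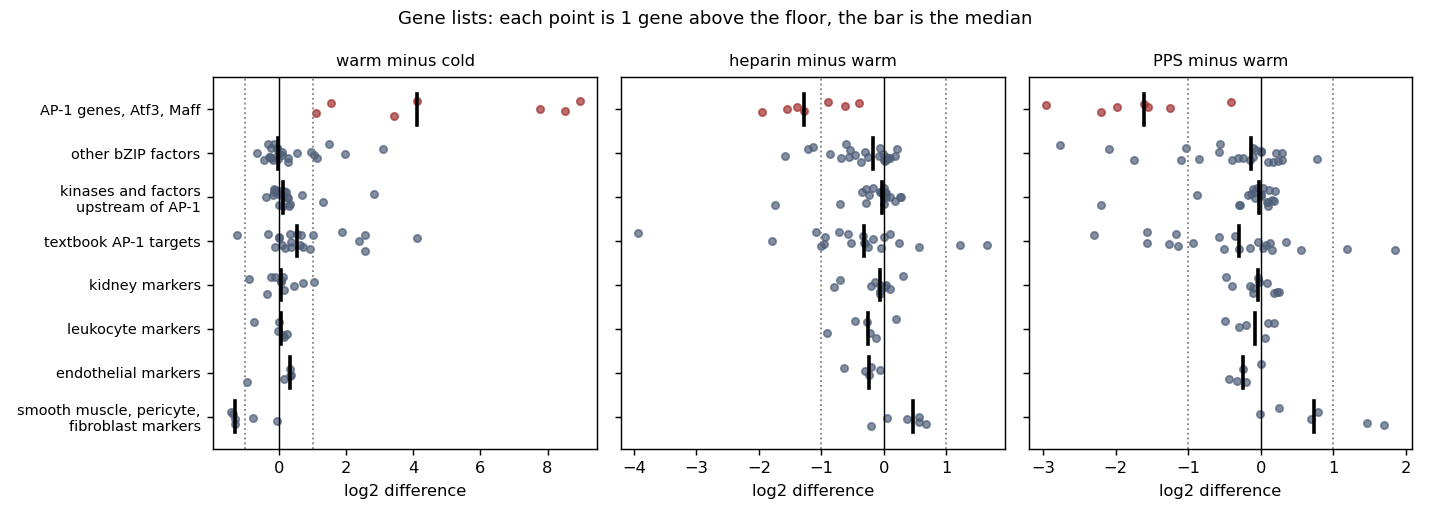
Log2 differences (x axis) for the 7 AP-1 genes, Atf3 and Maff included, for 3 gene lists and for 4 lists of cell type markers (rows); each point is 1 gene above the floor, black bars are medians and dotted lines the 2-fold limit. The median of the AP-1 genes is 4.10 in warm minus cold and negative in both other comparisons. The medians of the smooth muscle, pericyte and fibroblast markers go the other way, though not every gene of that list does. Horizontal scales differ.

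Markers of other cell types differed between the arrays too. All 6 smooth muscle, pericyte and fibroblast markers above the floor, of 8 on the array, were lower on the warm than on the cold array, 4 of them by 2-fold or more (1.16% of all genes), or 2 where all probe sets of a gene were averaged. Their summed log2 level was 60.3 after cold and 54.0 after warm perfusion, 56.0 with heparin and 58.9 with PPS, with Cspg4 and Des at the floor throughout. The sum thus had the reverse of the order of the AP-1 genes, as did Myh11, Tagln and Pdgfrb. Col1a1 and Col1a2 instead read higher with PPS (8.79 and 10.01) than after cold perfusion (8.38 and 9.97). With poly-A scaling these PPS minus cold differences turned to -0.64 and -1.02. Acta2 was lowest with heparin, at 7.92 against 8.13 on the warm array. Leukocyte markers summed to between 79.7 and 81.8 over 13 genes and endothelial markers to between 50.02 and 51.5 over 5 genes. Of the 6 leukocyte markers above the floor, 5 were below 0 and 1 above it in heparin minus warm (median -0.25). In heparin minus cold all 6 were below 0 (median -0.27), with 0 past the limit in either comparison. The median over all genes was 0 in both. The differences of the endothelial markers were above 0 for 4 of 5 genes in warm minus cold and below 0 for 5 of 5 in either supplement minus warm. In these comparisons 0 were past the limit, with medians of 0.33, -0.23 and -0.24, beside -0.0032, 0 and 0 over all genes. The gene below 0 in warm minus cold was Vwf (-0.95), which differed by only -0.00026 in PPS minus warm. In heparin minus cold Vwf was lower by 2-fold or more (-1.59), and 4 of the 5 genes were above 0 (median 0.10). With poly-A scaling the endothelial medians in warm minus cold and heparin minus cold turned to -0.80 and -1.16, beside -1.13 and -1.25 over all genes. Of 4 red blood cell markers 2 were on the array, with Alas2 at the floor throughout. Hbb stood at 9.85 after cold and 8.71 after warm perfusion, 8.20 with heparin and 9.22 with PPS. It was lower by 2-fold or more in warm minus cold (-1.14), heparin minus cold (-1.65) and heparin minus PPS (-1.02). In pooled tissue, fewer cells of a type and less RNA per cell cannot be told apart, and the part of cell make-up in the AP-1 values was not tested.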

How the data were processed

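Messenger RNA was measured on 4 Affymetrix rat arrays, 1 per group. The authors deposited log2 expression values per probe set, made with GCRMA per the submitters' processing notes (no version given in the sources used here). No header names the scale, and log2 was inferred from the range of 2.11 to 16.4. GCRMA gives all arrays nearly the same distribution, so a change in total messenger RNA would not show. Of 31099 probe sets, 57 controls were left out. Of the others, 9780 are unnamed here and 436 name several genes and were not used; 20758 of those with 1 symbol were found in RefSeq (GRCr8) through the Entrez identifier. Of 14217 genes, 9393 were above the floor on at least 1 array. Differences were taken with Python 3.11.15, numpy 2.4.6 and pandas 2.3.3. There are no replicate arrays, so no test was run; the number of arrays limits the precision. Other genes named were the 3 nearest in pattern to Fos, Jun, Junb and Atf3, up to 6 genes per list past the limit in warm minus cold, and, chosen after their values were seen, genes past it in the other comparisons. Ccn1 was singled out likewise. The 9 genes and the lists were chosen with earlier results of these data known. The alternatives were another floor, probe set rule, array scaling or size limit.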

Additional observations from a re-analysis of the deposited data

How the results depend on the processing

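Counts of genes past the limit were recomputed under 10 alternatives in each of 6 comparisons; 53 of these 60 counts stayed within 1.5 times the value reported. The others concern the supplements. With a 4-fold limit, 0 genes were lower in heparin minus warm (0.213% of all genes) and 2 in PPS minus warm (0.373%). With that limit 0 were higher in heparin minus PPS (0.0319%). In heparin minus PPS 1 gene was higher, where 0.192% of all genes were. Scaling to the poly-A controls or to the median of all genes left 0, where 0.0932% and 0.17% of all genes were. Scaling to the hybridisation controls or a 1.5-fold limit gave 5, where 1.53% and 1.29% of all genes were. For single AP-1 genes, 297 of 309 differences kept their side of the limit, 6 lost it, 5 gained it, and 1 past the limit turned: Jund in warm minus cold came to -0.026 with the arrays scaled to poly-A controls. Jund also changed sign 4 times within the limit: to -0.55, -0.36 and -0.19 with that scaling in heparin minus cold, PPS minus cold and heparin minus PPS, and to -0.022 in heparin minus PPS with arrays centred on the median of all genes. No other of the 7 genes above the floor changed sign under these alternatives. Fosl1 and Fosl2 had no difference to check, and Maff only those that involve the warm array. The floors at the 40th and 60th percentile and no floor gave 39, 36 and 39 of the 297. Another floor cannot move a difference whose values both lie above it, so part of this agreement was fixed in advance. No paired analysis was possible because each group has 1 array. For the same reason no array could be left out. Low signal limits Fosl1, Fosl2 and Maff.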
